A study of Homo sapiens with 12 samples.

Results

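The cytoplasmic tail of CD44 has no enzymatic activity and is tied to the cell cortex by linker proteins, and 10 genes that encode such linkers or regulate them were examined in CD44 WT and CD44 KO breast cancer cells. They are the ERM genes EZR (ezrin), RDX (radixin) and MSN (moesin), the ERM relative NF2 (merlin), the scaffold NHERF1, the ankyrins ANK1, ANK2 and ANK3, the scaffold IQGAP1 and the kinase SRC. The genes were chosen by name, with earlier results of these data known. They were located through the Ensembl identifiers of the count table, and all 10 of them were found among its 58381 genes. All 10 also passed the filter on low counts, in a set of 15836 genes tested.

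Linkers of the ERM family bind the CD44 tail with an amino-terminal FERM domain and actin filaments with the other end, and they open for binding once PIP2 and a kinase act on them. Merlin carries a FERM domain as well and acts upstream of the Hippo kinases, where it restrains growth. Ankyrins join membrane proteins, CD44 among them, to the spectrin meshwork under the membrane, while IQGAP1 gathers actin, calmodulin and small GTPases, and SRC phosphorylates adhesion proteins.

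RNA was sequenced from Hs578T and MDA-MB-231, human breast cancer cell lines of the triple negative type, in 12 libraries that form 4 groups of 3. All cells had been exposed to Cas9 reagents, and only CD44 KO cells had also received guide RNAs, which cut CD44. Sorting kept cells that carried CD29 (integrin beta 1), with CD44 on the surface for the WT groups and without it for the KO groups, so each group was a sorted population and not a clone, and all groups were serum-starved before RNA was taken. Whether the 3 libraries of each group were grown as separate cultures is not stated in the sources used here, and p-values then measure only the spread between these libraries.

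The libraries held 10257586 to 19725543 counts. CD44 itself, in CPM (counts scaled to a common library total with TMM factors), fell from 507 to 27.3 in Hs578T, and MDA-MB-231 showed 362 CPM in CD44 WT and 34.2 CPM in CD44 KO, so the targeted gene followed the labels in all 12 libraries. VIM was high in every group. It rose with loss of CD44, by 0.38 on the log2 scale in Hs578T (adjusted p = 0.00386, edgeR quasi-likelihood test). In MDA-MB-231 it rose by 0.43 (adjusted p = 0.00253, same test), and each value missed the 0.01 threshold in some other fits. FN1, the other mesenchymal marker, had means of 4596 and 3649 CPM in the WT and KO groups of Hs578T. Its means in MDA-MB-231 were 276 and 274 CPM. Of the epithelial markers, CDH1 stayed below 1 CPM in every library. EPCAM stood at 13.7 to 22.2 CPM in the MDA-MB-231 libraries and below 0.1 CPM in those of Hs578T. ESR1 reached at most 1.15 CPM and PGR had no counts, while ERBB2 was read at 57.4 to 101 CPM. Of 3 markers of other cell types, PTPRC rose with CD44 KO in Hs578T from 0.369 to 3.78 CPM (adjusted p = 3.19e-05, edgeR quasi-likelihood test, Benjamini-Hochberg method), PECAM1 did not pass and ACTA1 was near 0. Their summed level ran from 10.8 to 13.3 CPM in Hs578T CD44 WT, from 15.97 to 19.7 CPM in CD44 KO of that line and from 1.52 to 3.95 CPM over all MDA-MB-231 libraries, and its part in the results was not tested. Hs578T CD44 WT replicate 3 and MDA-MB-231 CD44 WT replicate 1 correlated least with their own groups (mean r of log2 CPM 0.987 in both), and values that rest on them are given without them too. The replicate number of 1 MDA-MB-231 CD44 WT library was unclear from the labels, and it is called unnumbered here and given last where the libraries of that group are listed.

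Each line was compared with and without CD44 to see which linkers differed in RNA level, and of the 5 calls made, 4 fell on ankyrin genes. Loss of CD44 came with higher ANK3 in both lines, higher ANK2 and lower ANK1 in Hs578T, and higher IQGAP1 in MDA-MB-231, whereas the ERM genes, NF2, NHERF1 and SRC passed the test in neither line. A gene was called when its adjusted p in edgeR's quasi-likelihood test was at most 0.01. In Hs578T 3 of the 10 genes were called, against 7.51% of all genes tested, with 2 higher (3.64% of all genes) and 1 lower (3.86%). In MDA-MB-231 2 of the 10 genes were called, both higher, against 4.62% of all genes in either direction, 1.97% higher and 2.65% lower. Because the genes were chosen with earlier results known, these shares describe them and are not independent evidence. The median log2 fold change of the linkers was -0.05 for Hs578T and 0.19 for MDA-MB-231, beside medians of -0.00 and -0.01 over all genes tested. In RNA from whole cultures, more RNA per cell and more cells that express a gene cannot be told apart.

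**Figure D1:**
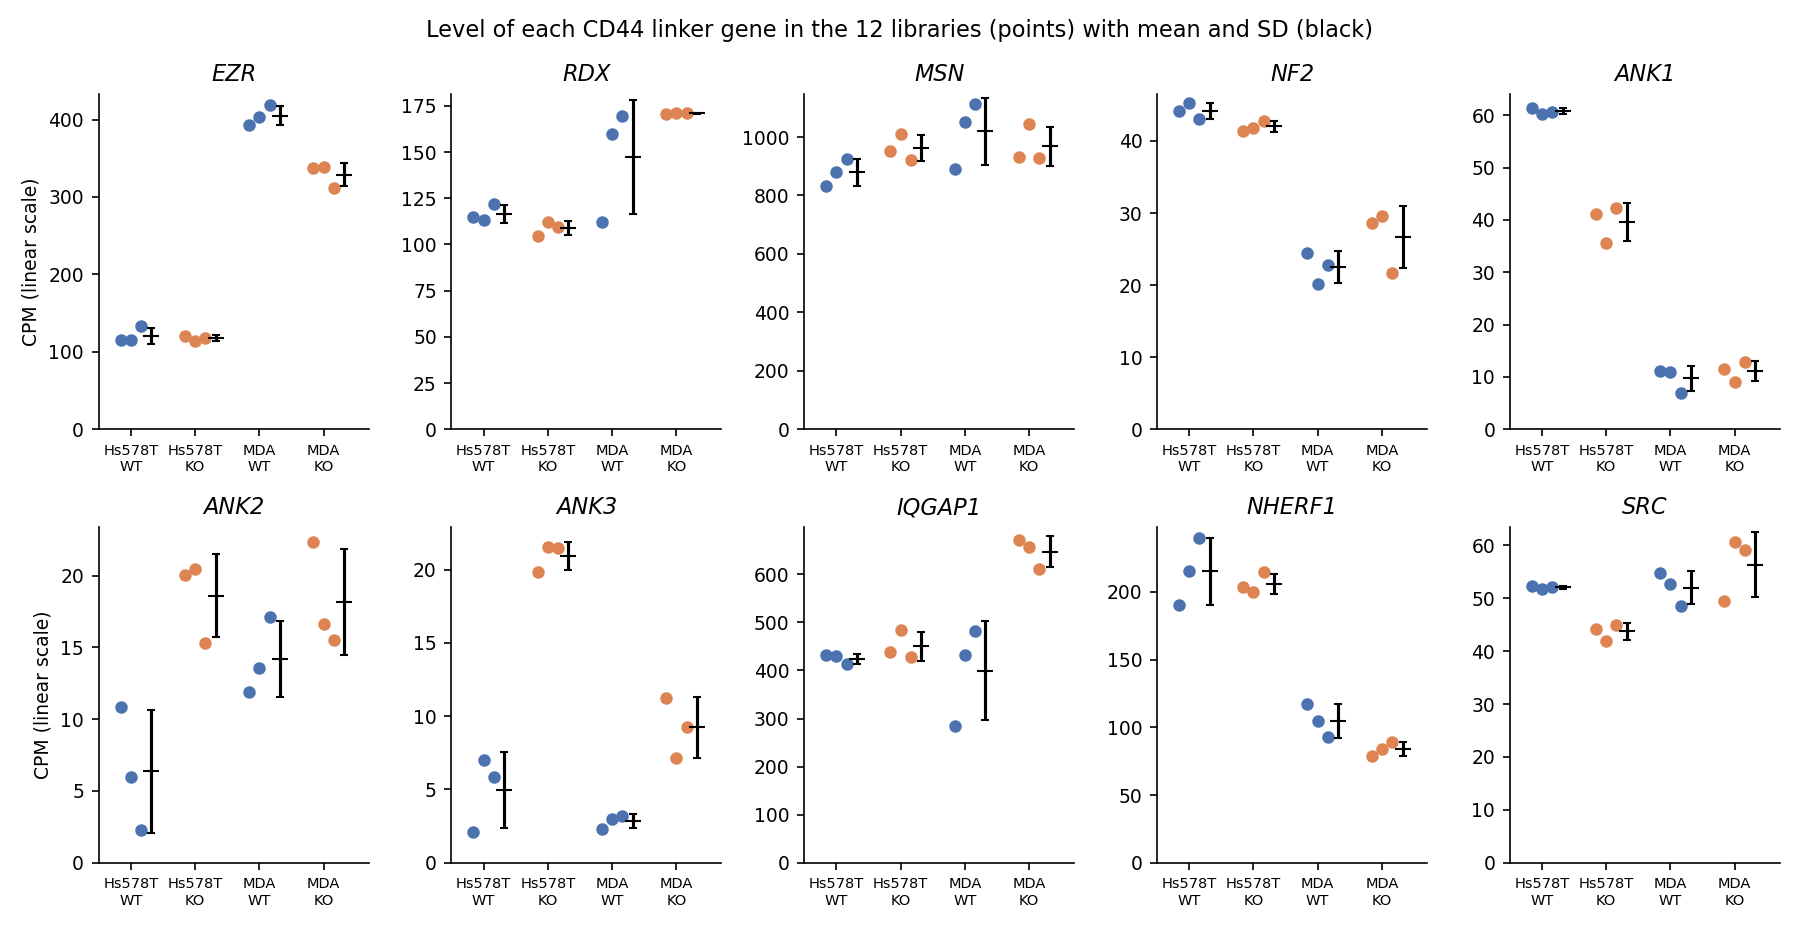
Levels of the 10 linker genes in CPM on a linear axis that starts at 0, with 1 point per library, CD44 WT in blue and CD44 KO in orange, and the mean with its SD in black (n = 3). ANK3 separated CD44 KO from CD44 WT in both lines, and IQGAP1 did so in MDA-MB-231, where CD44 KO libraries lay between 610 and 672 CPM.

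ANK3 (ENSG00000151150.21, ankyrin G, which holds sodium channels and cell adhesion molecules in place on the spectrin skeleton) lies on the minus strand of chromosome 10 of GRCh38, from 60026298 to 60733490. RefSeq gives it 4 starts that lie far apart, and the counts, which are summed over the gene, do not tell which of them was used. The 250 bases before each start are shown because ANK3 was the member called in both lines, with letters from RefSeq on GRCh38.p14, written 5′ to 3′ on the strand of the gene. Capitals mark the motifs searched on both strands, the GC box GGGCGG, the TATA box TATAAA, the AP-1 motif TGANTCA and the TEAD motif GGAATG.
ANK3 start A, chr10:60733529-60733778, minus strand: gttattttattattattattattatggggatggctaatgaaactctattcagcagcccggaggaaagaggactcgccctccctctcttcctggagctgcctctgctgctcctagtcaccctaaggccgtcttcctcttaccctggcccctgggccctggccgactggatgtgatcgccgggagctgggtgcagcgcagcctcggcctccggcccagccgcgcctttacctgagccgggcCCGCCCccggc
ANK3 start B, chr10:60572957-60573206, minus strand: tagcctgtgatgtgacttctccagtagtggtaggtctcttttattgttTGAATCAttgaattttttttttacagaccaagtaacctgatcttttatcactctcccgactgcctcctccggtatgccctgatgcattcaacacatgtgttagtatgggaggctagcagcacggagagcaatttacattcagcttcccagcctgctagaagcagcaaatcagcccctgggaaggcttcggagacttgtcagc
ANK3 start C, chr10:60389876-60390125, minus strand: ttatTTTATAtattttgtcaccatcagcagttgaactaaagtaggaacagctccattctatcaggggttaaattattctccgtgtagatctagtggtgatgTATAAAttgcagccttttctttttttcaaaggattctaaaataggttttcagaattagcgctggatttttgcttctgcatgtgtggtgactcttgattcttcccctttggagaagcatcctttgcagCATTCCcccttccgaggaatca
ANK3 start D, chr10:60140741-60140990, minus strand: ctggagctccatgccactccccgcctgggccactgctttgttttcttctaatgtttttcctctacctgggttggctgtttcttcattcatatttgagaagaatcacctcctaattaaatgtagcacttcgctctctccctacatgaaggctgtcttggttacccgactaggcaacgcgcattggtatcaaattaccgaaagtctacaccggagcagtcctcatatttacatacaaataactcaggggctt
The window of start A, with the 50 bases after the start included, was 64.0% G or C and held 1 GC box. Starts B, C and D lay in windows of 40.7% to 46.3% G or C, below the median of 58.7% over all 35116 promoter windows of this length, and none of these 3 windows held a GC box, which 45.0% of all windows hold. An AP-1 motif stood before start B (7.71% of all windows) and 2 TATA boxes and 1 TEAD motif before start C (11.5% and 14.03%), while the window of start D held none of the 4 motifs. These matches describe letters, and nothing in the counts was tied to them.

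ANK3 stood at 2.08, 6.99 and 5.84 CPM in the 3 Hs578T CD44 WT libraries and at 19.8, 21.5 and 21.5 CPM in the CD44 KO libraries. Every CD44 KO library was above every CD44 WT library, and the CD44 WT libraries spread widely, from 30 to 85 counts. CD44 KO exceeded CD44 WT by a log2 fold change of 2.095 (4.27-fold, standard error 0.287, adjusted p = 1.43e-04, edgeR quasi-likelihood test, Benjamini-Hochberg method). Without CD44 WT replicate 3 it was 2.24, without CD44 WT replicate 1 it was 1.70, and the call was kept in each of the 24 other fits run. In MDA-MB-231, ANK3 stood at 2.31, 3.00 and 3.21 CPM in CD44 WT and at 11.3, 7.15 and 9.28 CPM in CD44 KO, again with no overlap. The change was 3.21-fold (log2 fold change 1.68, standard error 0.323, adjusted p = 0.00363, same edgeR test). The log2 fold change became 1.55, with an adjusted p of 0.0160 in edgeR, when CD44 WT replicate 1 was left out. The call was also lost without CD44 WT replicate 3 (adjusted p = 0.0156), without CD44 KO replicate 1 (adjusted p = 0.0173) and without CD44 KO replicate 3 (adjusted p = 0.0112), all in the same edgeR test. The changes in the lines differed by 0.41 on the log2 scale, with a 95% confidence interval from -0.52 to 1.34. The 100 tested genes nearest to ANK3 on chromosome 10 moved by a median of 0.01 on the log2 scale in Hs578T and 0.34 in MDA-MB-231, and the part of that shift in the ANK3 value was not tested.

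ANK2 (ENSG00000145362.17, ankyrin B, which places ion pumps and exchangers in heart and brain) lies on the plus strand of chromosome 4 from 112818109 to 113383740. It stood at 10.8, 6.01 and 2.29 CPM in Hs578T CD44 WT and at 20.1, 20.5 and 15.3 CPM in CD44 KO. All CD44 KO libraries were higher, although the CD44 WT libraries differed from each other by more than those of any other member, with an SD of 67.2% of the mean. ANK2 rose 2.87-fold (log2 fold change 1.52, standard error 0.332, adjusted p = 0.00594, edgeR quasi-likelihood test, Benjamini-Hochberg method). The log2 fold change was 1.13 and still called without CD44 WT replicate 3, the lowest library, and 2.16 without CD44 WT replicate 1. The call was lost without CD44 WT replicate 2 (adjusted p = 0.0313) and without any of the CD44 KO libraries (adjusted p from 0.0117 to 0.0294, same edgeR test), and also when Hs578T was fitted alone (adjusted p = 0.0130) or with robust estimation (adjusted p = 0.0126 in edgeR). In MDA-MB-231 the levels were 11.9, 13.5 and 17.1 CPM in CD44 WT and 22.4, 16.6 and 15.5 CPM in CD44 KO. These libraries overlapped, and the log2 fold change of 0.36 did not pass (95% confidence interval -0.31 to 1.03, adjusted p = 0.539 in edgeR).

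ANK1 (ENSG00000029534.20, ankyrin R, the anchor of the red cell membrane), on the minus strand of chromosome 8, went the other way in Hs578T. It stood at 61.4, 60.3 and 60.7 CPM in CD44 WT and at 41.1, 35.6 and 42.2 CPM in CD44 KO. The CD44 WT libraries were nearly alike, with an SD of 0.964% of the mean, and lay above all CD44 KO libraries. ANK1 fell by 0.62 on the log2 scale (standard error 0.146, 1.54-fold lower, adjusted p = 0.00939, edgeR quasi-likelihood test, Benjamini-Hochberg method). This was close to the threshold, and leaving out any Hs578T library took the adjusted p to between 0.0203 and 0.0608 in edgeR, with log2 fold changes from -0.66 to -0.54. The call also ended without MDA-MB-231 CD44 WT replicate 3 (adjusted p = 0.0118) and without CD44 KO replicate 1 of that line (adjusted p = 0.0116) in edgeR, where 1 spread was estimated from all groups. In MDA-MB-231, ANK1 was weak, at 11.2, 11.03 and 6.95 CPM in CD44 WT and at 11.6, 8.95 and 12.8 CPM in CD44 KO. The groups overlapped there, with a log2 fold change of 0.17 (95% confidence interval -0.20 to 0.54, adjusted p = 0.608 in edgeR).

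The make-up of the ankyrin family was read as each gene's percent of the summed CPM per kb of exons, a family and a measure chosen after the values were seen. In Hs578T CD44 WT, ANK1 made up 91.2% ± 2.49 of the summed level, ANK2 5.58% ± 3.62 and ANK3 3.17% ± 1.67 (SD, n = 3). With CD44 KO, ANK1 stood at 66.5% ± 3.68, ANK2 at 18.6% ± 3.26 and ANK3 at 14.9% ± 1.18 (SD, n = 3), with no overlap for any of the 3. The summed level itself was 6.18 ± 0.196 CPM per kb in CD44 WT and 5.51 ± 0.221 in CD44 KO of Hs578T, and 1.79 ± 0.0874 and 2.39 ± 0.361 CPM per kb in MDA-MB-231, with no overlap in either line (SD, n = 3). With CPM not divided by length, the Hs578T sum was instead higher in every CD44 KO library than in any CD44 WT library. Mean undivided levels in Hs578T went from 60.8 to 39.6 CPM for ANK1, from 6.37 to 18.6 for ANK2 and from 4.97 to 20.9 for ANK3. In MDA-MB-231, ANK3 stood at 6.21% ± 1.13 in CD44 WT and 14.98% ± 1.12 in CD44 KO, while ANK1 overlapped between 50.1% ± 10.9 and 43.2% ± 5.49 (SD, n = 3). With 3 libraries against 3, an exact two-sided permutation test cannot go below p = 0.1.

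**Figure D2:**
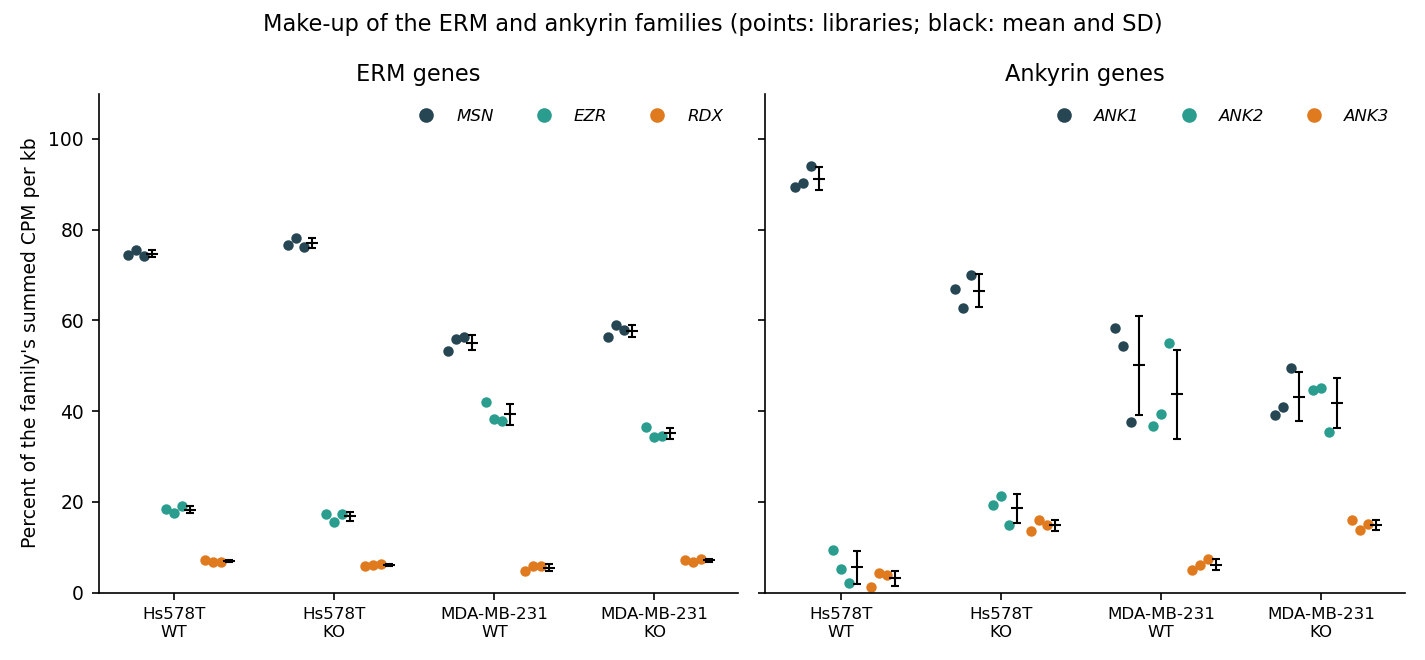
Percent of the summed CPM per kb held by each ERM gene (left) and each ankyrin gene (right), with 1 point per library and the mean with its SD in black (n = 3). ANK1 stood at 91.2% in Hs578T CD44 WT and 66.5% in CD44 KO, while MSN stayed the largest ERM share in all 4 groups.

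IQGAP1 (ENSG00000140575.12, a scaffold for actin, calmodulin, Rac1 and Cdc42) lies on the plus strand of chromosome 15 from 90388218 to 90502243. Its 250 bases before the RefSeq start are shown for contrast with ANK3, since IQGAP1 was the other gene called in MDA-MB-231, with the same motifs in capitals and the same source and build.
IQGAP1, chr15:90387992-90388241, plus strand: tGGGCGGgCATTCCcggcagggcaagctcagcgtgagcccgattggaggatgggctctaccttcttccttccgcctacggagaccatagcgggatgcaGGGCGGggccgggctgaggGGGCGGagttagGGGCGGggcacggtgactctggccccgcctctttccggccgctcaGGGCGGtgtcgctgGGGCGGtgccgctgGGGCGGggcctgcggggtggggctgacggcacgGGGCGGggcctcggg
This window, again with the 50 bases after the start, was 74.0% G or C and held 8 GC boxes and 1 TEAD motif, with no TATA box or AP-1 motif. The level in Hs578T was 431, 429 and 413 CPM in CD44 WT and 439, 484 and 427 CPM in CD44 KO, and these groups overlapped. The log2 fold change was 0.08 (95% confidence interval -0.21 to 0.38, adjusted p = 0.758 in edgeR). In MDA-MB-231, IQGAP1 stood at 284, 432 and 482 CPM in CD44 WT and at 672, 657 and 610 CPM in CD44 KO. All CD44 KO libraries were higher, and CD44 WT replicate 1 lay far below the other CD44 WT libraries. IQGAP1 rose 1.62-fold (log2 fold change 0.70, standard error 0.140, adjusted p = 0.00502, edgeR quasi-likelihood test, Benjamini-Hochberg method). Without CD44 WT replicate 1 the log2 fold change was 0.50 and the adjusted p was 0.00115 in edgeR. The call was lost without CD44 WT replicate 3 (adjusted p = 0.0117), without any of the CD44 KO libraries (adjusted p from 0.0110 to 0.0231) and when MDA-MB-231 was fitted alone (adjusted p = 0.0423), in the same edgeR test. The 100 tested genes around IQGAP1 on chromosome 15 gave a median of 0.31 on the log2 scale in MDA-MB-231 and 0.04 in Hs578T, and the part of that shift was not tested. ITGB1, the gene of the sort marker CD29, ran with IQGAP1 in the CD44 WT libraries of MDA-MB-231, at 409, 659 and 696 CPM, with 888 to 910 CPM in CD44 KO, and its part in the IQGAP1 value was not tested.

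Of the ERM genes, MSN was the highest linker in every group and RDX stood in the middle of the order, and none of the 3 was called after loss of CD44. Moesin (MSN, ENSG00000147065.16), on the plus strand of chromosome X from 65588377 to 65741931, stood at 833, 879 and 926 CPM in Hs578T CD44 WT and at 952, 1012 and 922 CPM in CD44 KO. The MDA-MB-231 libraries held 891, 1052 and 1114 CPM in CD44 WT and 930, 1043 and 929 CPM in CD44 KO. Both pairs of groups overlapped, with log2 fold changes of 0.13 (95% confidence interval -0.07 to 0.33) and -0.07 (-0.27 to 0.12). MSNP1, a processed copy of MSN that can share its reads, had a mean of 15.05 to 18.9 CPM in the groups and was called in neither line.

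Ezrin (EZR, ENSG00000092820.17), on the minus strand of chromosome 6 from 158765741 to 158819412, stood at 115, 115 and 133 CPM in Hs578T CD44 WT and at 121, 113 and 118 CPM in CD44 KO. The groups overlapped (log2 fold change -0.04, 95% confidence interval -0.22 to 0.13). In MDA-MB-231 the levels were 394, 403 and 418 CPM in CD44 WT and 337, 339 and 311 CPM in CD44 KO. Each CD44 KO library was below each CD44 WT library, the log2 fold change being -0.30 (standard error 0.0801, adjusted p = 0.0261, edgeR quasi-likelihood test, Benjamini-Hochberg method), which missed the threshold. DESeq2 called the difference (adjusted p = 0.00545).

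Radixin (RDX, ENSG00000137710.15), on the minus strand of chromosome 11 from 109864295 to 110296722, stood at 115, 113 and 122 CPM in Hs578T CD44 WT and at 105, 112 and 110 CPM in CD44 KO. In MDA-MB-231 it stood at 112, 160 and 170 CPM in CD44 WT and at 171, 171 and 171 CPM in CD44 KO. The groups did not overlap in either line, with lower CD44 KO libraries in Hs578T but higher ones in MDA-MB-231, but the margins were narrow and neither difference passed (log2 fold changes -0.10 and 0.22, adjusted p = 0.654 and 0.294 in edgeR). Without CD44 WT replicate 1, the value in MDA-MB-231 was 0.05.

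Per length, MSN made up 74.7% ± 0.732 of the summed ERM level in Hs578T CD44 WT and 77.1% ± 1.04 in CD44 KO (SD, n = 3). In MDA-MB-231 it made up 55.1% ± 1.61 and 57.7% ± 1.35 (SD, n = 3). CD44 KO lay above CD44 WT with no overlap in both lines, by 2.35 and 2.62 percentage points, and between the CD44 WT groups of the lines the difference was 19.6 percentage points. With counts not divided by length the MDA-MB-231 groups overlapped, and the difference there was 1.11 percentage points. Each of the 3 comparisons per length gave p = 0.1 in the exact two-sided permutation test, the smallest p that 3 against 3 libraries can give.

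Merlin (NF2, ENSG00000186575.17), on the plus strand of chromosome 22 from 29603556 to 29698598, stood at 44.2, 45.3 and 43.1 CPM in Hs578T CD44 WT and at 41.4, 41.9 and 42.8 CPM in CD44 KO. Its MDA-MB-231 levels were 24.5, 20.1 and 22.8 CPM in CD44 WT and 28.6, 29.6 and 21.7 CPM in CD44 KO. The log2 fold changes of -0.07 (95% confidence interval -0.31 to 0.17) and 0.25 (-0.00 to 0.51) were not called, although the Hs578T libraries did not overlap.

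NHERF1 (ENSG00000109062.11, whose PDZ domains hold receptors and transporters beside ERM proteins), on the plus strand of chromosome 17 from 74748652 to 74769353, stood at 190, 215 and 240 CPM in Hs578T CD44 WT and at 204, 200 and 214 CPM in CD44 KO. These groups overlapped. In MDA-MB-231 the levels were 117, 105 and 92.7 CPM in CD44 WT and 78.7, 84.1 and 89.3 CPM in CD44 KO, with every CD44 KO library lower. The log2 fold change of -0.32 there (95% confidence interval -0.54 to -0.10) did not pass, with an adjusted p of 0.0686 in edgeR's quasi-likelihood test.

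SRC (ENSG00000197122.11), on the plus strand of chromosome 20 from 37344685 to 37406050, stood at 52.4, 51.7 and 52.1 CPM in Hs578T CD44 WT and at 44.2, 41.9 and 45.0 CPM in CD44 KO. All CD44 KO libraries were lower, and the log2 fold change of -0.25 (95% confidence interval -0.45 to -0.05) was not called (adjusted p = 0.0912 in edgeR). Its levels in MDA-MB-231, 54.7, 52.6 and 48.6 CPM in CD44 WT and 49.4, 60.5 and 59.2 CPM in CD44 KO, overlapped (log2 fold change 0.12, 95% confidence interval -0.08 to 0.32). Counted over the 10 linkers, CD44 KO and CD44 WT libraries did not overlap for 6 in Hs578T, 2 higher and 4 lower, where 37.3% of all genes tested did not overlap, 18.7% higher and 18.6% lower. In MDA-MB-231 they did not overlap for 5, 3 higher and 2 lower, where 25.5% of all genes did not, 11.8% higher and 13.7% lower.

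**Figure D3:**
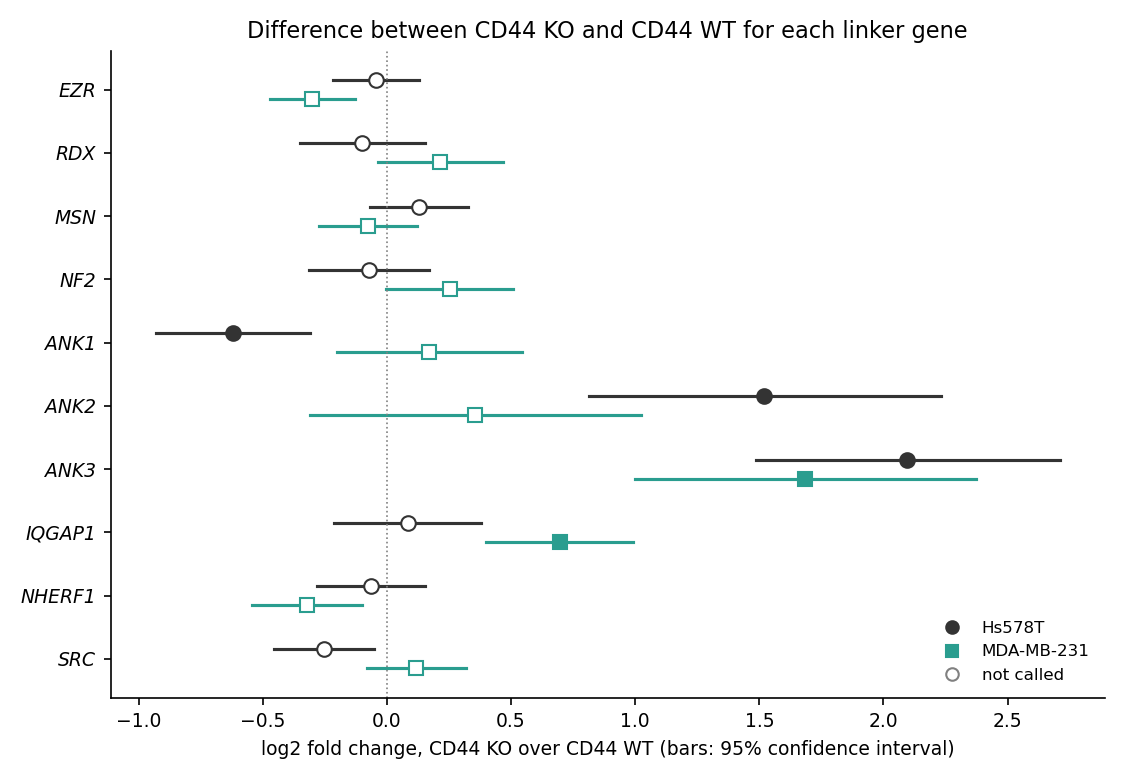
Log2 fold change, CD44 KO relative to WT, for each linker gene in Hs578T (circles) and MDA-MB-231 (squares), with 95% confidence intervals as bars and filled symbols for called genes. ANK3 stood at 2.095 and 1.68, and the intervals of the 3 ERM genes lay between -0.47 and 0.47 on the log2 scale in both lines.

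The difference between the changes in the lines was tested for each gene. None of the 10 genes was called in edgeR's quasi-likelihood test, against 4.12% of all genes (2.33% with the higher change in Hs578T and 1.79% with the lower), while 5 (EZR, ANK1, ANK2, IQGAP1 and SRC) had an unadjusted p under 0.05, against 24.6% of all genes, and DESeq2 called 1, ANK1, against 7.45%. ANK1 had the lowest adjusted p (0.0378), with a change in Hs578T that was lower by 0.79 on the log2 scale than in MDA-MB-231 (95% confidence interval of the difference -1.27 to -0.31). For IQGAP1 the difference was -0.61 (95% confidence interval -1.03 to -0.19, adjusted p = 0.0608 in edgeR), and for ANK2 it was 1.16 (0.19 to 2.14, adjusted p = 0.123). The calls in 1 line and not in the other were therefore not shown to differ between the lines.

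Per kb of exons, the highest and lowest linkers were shared by the lines, whereas EZR stood below NHERF1 in Hs578T and above it in MDA-MB-231. In Hs578T CD44 WT, MSN led with 147 CPM per kb and NHERF1 followed with 92.9, then IQGAP1 with 36.8 and EZR with 36.2, whose ranges overlapped. RDX came next with 13.7 CPM per kb, followed by SRC with 8.05, NF2 with 6.16 and ANK1 with 5.63, each apart from its neighbours. ANK2 with 0.350 and ANK3 with 0.194 CPM per kb closed the order, and their ranges overlapped. In MDA-MB-231 CD44 WT, MSN led with 171 CPM per kb, EZR was second with 121, and NHERF1 with 45.3 overlapped IQGAP1 with 34.6. RDX (17.3 CPM per kb), SRC (8.03) and NF2 (3.13) followed, ANK1 (0.902) overlapped ANK2 (0.779), and ANK3 was last with 0.111. CD44 KO left the order of the mean levels as it was in Hs578T and exchanged IQGAP1 (56.0 CPM per kb) and NHERF1 (36.3) in MDA-MB-231.

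Between the CD44 WT groups, 5 of the 10 linkers were called, against 61.5% of all genes tested, with 3 higher in Hs578T (32.2% of all genes) and 2 lower (29.4%). For the same 5 the libraries did not overlap, against 71.8% of all genes, 37.7% higher and 34.2% lower. EZR was lower in Hs578T than in MDA-MB-231 by 1.74 on the log2 scale, which is 3.35-fold (adjusted p = 5.74e-11, edgeR quasi-likelihood test, Benjamini-Hochberg method). ANK1 was 6.23-fold higher in Hs578T, NHERF1 2.05-fold and NF2 1.97-fold higher, each called in all 23 other fits run. ANK2 was 2.18-fold lower in Hs578T (adjusted p = 0.00760 in edgeR), a call that was lost in 4 of 11 other settings, DESeq2 and library totals without TMM factors among them, and without 8 of the 12 libraries left out in turn. Library totals alone moved the median of all genes in this comparison from 0.04 to 0.16 on the log2 scale. The ANK2 log2 fold change was -0.74 without Hs578T CD44 WT replicate 3 and -1.76 without CD44 WT replicate 1 of that line. MSN, RDX, ANK3, IQGAP1 and SRC were not called, but without MDA-MB-231 CD44 WT replicate 1 both RDX (log2 fold change -0.50, adjusted p = 1.25e-05) and MSN (-0.30, adjusted p = 0.00352) were called lower in Hs578T in the same edgeR test. ANK3 was called higher in Hs578T without CD44 WT replicate 1 of that line (log2 fold change 1.18, adjusted p = 3.84e-04) and without the filter on low counts (adjusted p = 0.00173, both in edgeR), a setting that also called RDX.

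**Figure D4:**
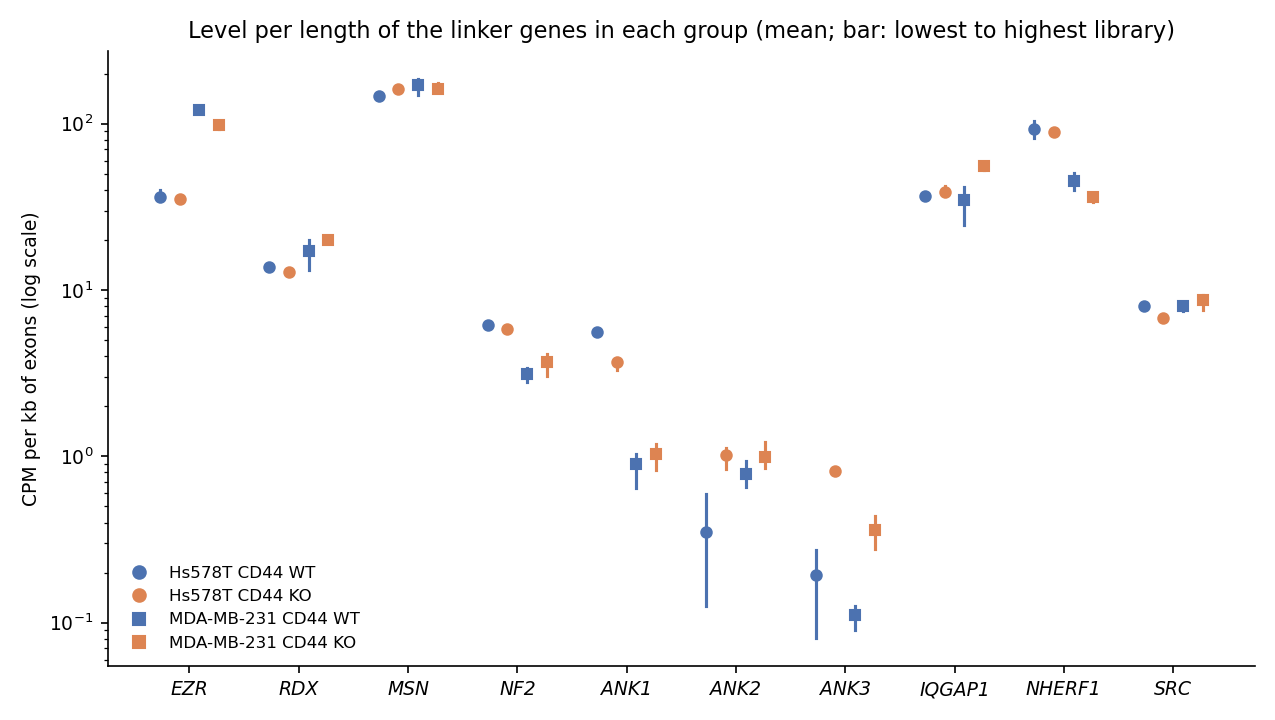
Mean level of each linker gene in CPM per kb of exons, on a log axis, in Hs578T (circles) and MDA-MB-231 (squares), CD44 WT in blue and CD44 KO in orange, with bars from the lowest to the highest library (n = 3). MSN was highest in every group and the 3 ankyrins were lowest, with ANK1 in Hs578T CD44 WT, at 5.63 CPM per kb, close under NF2 at 6.16.

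Genes that work with the linkers were read from 10 lists, chosen with earlier results of these data known, of which 100 genes were tested and are reported here. In Hs578T 15 of them were called (15%, beside 7.51% of all genes), 6 higher and 9 lower (3.64% and 3.86% of all genes). In MDA-MB-231 4 were called (4%, beside 4.62%), 1 higher and 3 lower (1.97% and 2.65% of all genes), with no gene called in both lines. The median log2 fold change of the 100 genes was 0.04 for Hs578T and 0.03 for MDA-MB-231.

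Of the kinases, phosphatase subunits and PIP2 kinases that switch ERM proteins on or off, 2 of 15 were called in Hs578T and none in MDA-MB-231. Over all genes, 7.51% and 4.62% were called. STK10, a kinase of the ERM threonine, rose from 101 to 153 CPM in Hs578T (log2 fold change 0.61, adjusted p = 4.57e-04 in edgeR), and PPP1CB, a catalytic subunit of myosin phosphatase, fell from 147 to 98.8 CPM (log2 fold change -0.57, adjusted p = 0.00257), a call lost without Hs578T CD44 WT replicate 1 or CD44 KO replicates 1 or 3. Among 13 membrane proteins that bind ERM proteins or NHERF1, 4 were called in Hs578T (beside 7.51% of all genes) and none in MDA-MB-231 (4.62%). Podoplanin (PDPN) rose from 11.1 ± 4.64 to 48.1 ± 1.89 CPM (SD, n = 3, 4.29-fold) and ICAM2 from 7.15 to 11.98 CPM. PDGFRA fell from 37.5 ± 7.56 to 14.9 ± 1.86 CPM (SD, n = 3, 2.52-fold lower), and the proteoglycan SDC2 fell from 119 to 55.0 CPM. Their adjusted p-values ran from 3.83e-05 for PDPN to 0.00479 for ICAM2 in edgeR. The ICAM2 call was lost without any 1 of 5 Hs578T libraries, and the SDC2 call without 4. In MDA-MB-231, PDPN had 5 counts summed over CD44 WT and 12 over CD44 KO, and PDGFRA had 3 and 0. Counts this low limit what could be called in that line. None of the 5 NHERF paralogs and ezrin scaffold partners tested was called in either line.

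The partners of the ankyrins included 13 genes of the spectrin and adducin skeleton. Of these, 3 fell in Hs578T, where 3.86% of all genes were called lower, and none was called in MDA-MB-231. They were DMTN (dematin, which bundles actin at spectrin junctions), from 6.69 ± 2.94 to 1.65 ± 0.320 CPM (4.06-fold lower), SPTB (the red cell beta spectrin that binds ankyrin R), from 18.4 ± 3.94 to 6.94 ± 1.81 CPM (2.68-fold lower), and TMOD1 (a cap of actin pointed ends), from 9.29 ± 2.05 to 4.25 ± 0.556 CPM (2.19-fold lower, SD, n = 3 throughout). Their adjusted p-values were 2.26e-04, 0.00190 and 0.00314 in the same edgeR test. DMTN stayed called in all 24 other fits, whereas SPTB was lost without CD44 WT replicates 1 or 2 or CD44 KO replicate 2, and TMOD1 without any Hs578T library but CD44 WT replicate 3. In MDA-MB-231, counts summed over CD44 WT and over CD44 KO were 4 and 3 for TMOD1, 22 and 37 for SPTB and 108 and 84 for DMTN. Counts as low as those of TMOD1 and SPTB limit what could be called in that line. The other 10 genes of the list were not called, and the list as a whole had a median log2 fold change of -0.03. Of the membrane proteins held by ankyrins, 5 are reported here and none of these was called in either line, with median log2 fold changes of 0.11 in Hs578T and 0.33 in MDA-MB-231.

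Merlin partners gave 1 called gene of 13 in each line. WWC1 (KIBRA) fell in Hs578T from 42.5 to 25.3 CPM (adjusted p = 6.12e-04) and AMOT (angiomotin) in MDA-MB-231 from 6.94 ± 0.747 to 0.616 ± 0.275 CPM (SD, n = 3, 11.5-fold lower, adjusted p = 3.70e-06, both in edgeR). AMOT was also lower in Hs578T with no overlap, but near the floor, at 10 counts summed over CD44 WT and 1 over CD44 KO. It was not called there (log2 fold change -2.97, adjusted p = 0.0353 in edgeR), and its difference between the lines, 0.55, was not called. Of 14 IQGAP paralogs and partners, 2 fell in Hs578T (3.86% of all genes were called lower there) and none was called in MDA-MB-231. IQGAP2, the close relative of IQGAP1, went from 5.83 ± 3.40 CPM (SD, n = 3) in CD44 WT to 0 counts in CD44 KO (adjusted p = 3.77e-05 in edgeR). With 232 counts summed over the CD44 WT libraries and 3 counts over the group as a chosen floor, it was at least 81.4-fold lower. That value leaves out the wide spread between the CD44 WT libraries. Calmodulin gene CALM2 fell from 657 to 451 CPM (1.46-fold lower, adjusted p = 4.71e-04 in edgeR).

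SRC family kinases and their regulators gave 1 call of 10 in Hs578T and 2 in MDA-MB-231, beside 7.51% and 4.62% of all genes. FYN rose in Hs578T from 108 to 140 CPM (adjusted p = 0.00441 in edgeR), a call lost without any single Hs578T library. In MDA-MB-231 LCK fell from 4.56 to 0.552 CPM (7.78-fold lower, adjusted p = 3.13e-04 in edgeR), and PAG1, which recruits the SRC inhibitor CSK, rose from 27.2 to 50.4 CPM (adjusted p = 0.00927), a call kept in 12 of 24 other fits and lost without any 1 of the 6 MDA-MB-231 libraries. Among 5 SRC substrates, paxillin (PXN) rose in Hs578T from 211 to 313 CPM (1.48-fold, adjusted p = 8.43e-05 in edgeR) and was called in all other fits. Of 7 exchange factors and adaptors of the CD44 tail, VAV3 rose in Hs578T from 3.60 ± 0.595 to 28.5 ± 3.79 CPM (SD, n = 3, 7.85-fold, adjusted p = 1.77e-06 in edgeR) and had no counts in MDA-MB-231. TIAM1, an activator of Rac1, fell in MDA-MB-231 from 37.4 to 23.9 CPM (adjusted p = 0.00665 in edgeR), a call kept in 12 of 24 other fits and lost without any 1 of 5 MDA-MB-231 libraries.

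**Figure D5:**
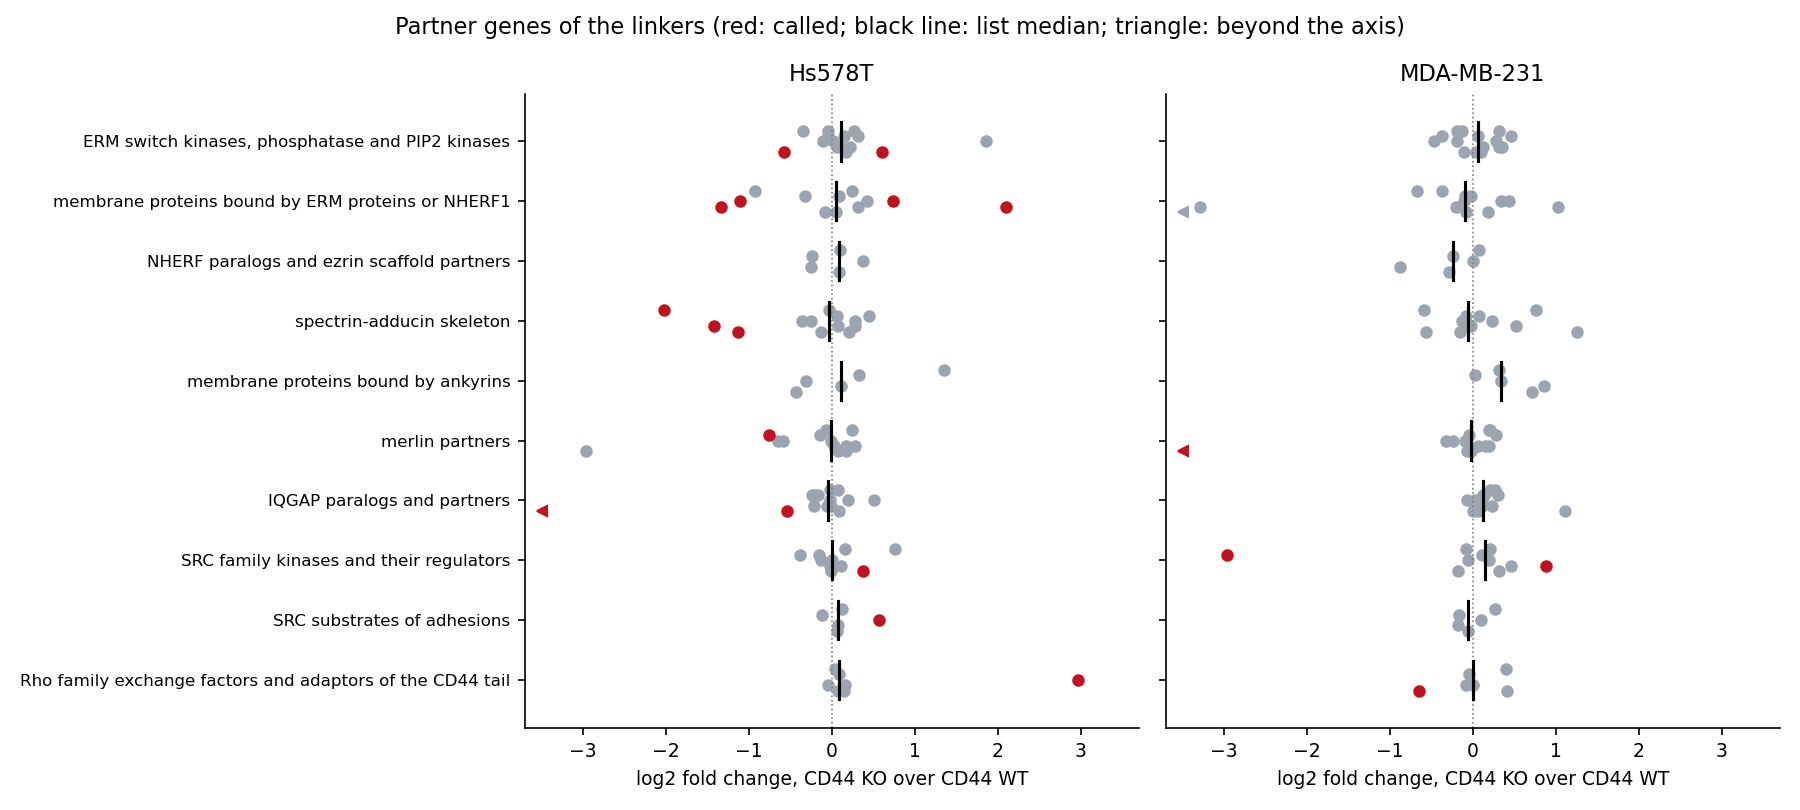
Log2 fold change, CD44 KO relative to WT, for the tested genes of 10 partner lists in Hs578T (left) and MDA-MB-231 (right), with called genes in red, others in grey, list medians as black lines and triangles for genes beyond the axis; a gene with no counts in a line is not drawn there. Called genes numbered 15 of 100 in Hs578T and 4 of 100 in MDA-MB-231, and the list medians lay between -0.24 and 0.33.

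For the 4 called linkers, the genes most like them were sought among 11226 others with a mean of at least 5 CPM, by Pearson's r of log2 CPM over the 12 libraries after each line's mean was subtracted. The libraries share the CD44 contrast, so these values describe likeness only. ANK3 was most like NEIL3 (r = 0.980), SETD3 (0.963) and TLR6 (0.951), and NEIL3 and TLR6 were called higher in both lines. ANK2 ran with SH3RF3 (r = 0.949), SOCS2 (0.943) and CD163L1 (0.940), and ANK1 with MGAT5B (0.941), ISOC2 (0.928) and CYP1A1 (0.926), none of which was called in either line. IQGAP1 ran with IREB2 (r = 0.991), GLIS3 (0.983) and KIF5B (0.981), of which IREB2 and GLIS3 were called higher in MDA-MB-231. Around the 8 linkers other than ANK3 and IQGAP1, the median of the nearest genes on the chromosome lay between -0.13 and 0.24 on the log2 scale in both lines, from 85 neighbours for EZR and 100 for the rest.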

How the data were processed

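RNA-seq counts of 12 libraries were analysed. The authors aligned read pairs of 50 bp to GRCh38 with HISAT2 (version 2.1.0), counted them with featureCounts (version 1.6.2) on GENCODE 28 at a mapping quality of at least 10, with strand, and deposited raw counts per gene without normalization, as the file headers and the submitters' processing notes give it. Symbols came from a current table, which named 57799 of 58381 genes. The test covered genes whose CPM exceeded 1 in 2 or more libraries and whose exons summed to 300 nt or more, in R 4.3.3 with edgeR 4.0.16 (TMM factors, quasi-likelihood test, 4 group means, Benjamini-Hochberg adjustment over all genes tested). The methods of the paper word the length filter as keeping shorter genes, which was read as an error. Counts were also used per kb of exonic length, and family shares were compared with exact permutation tests (SciPy 1.17.1). The alternatives were DESeq2 1.42.0, other scaling, filters, thresholds and fits, replicate blocks and leaving out each library. The fit was also run on simulated counts with known changes in Hs578T CD44 KO only. That outcome is not reported here, and no result rests on it. Total counts of 10257586 to 19725543 per library limit the precision for weak genes.

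All 10 linker genes are named. Of each partner list, up to 4 called genes are named, those with the smallest adjusted p in either line. The members and lists were chosen with earlier results of these data known. Promoter letters came from RefSeq (GRCh38.p14), where 8 of the 10 genes matched. ANK1 and SRC did not. In the partner lists, 1 gene is not reported here.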

Additional observations from a re-analysis of the deposited data

Results flagged for a closer look

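Of the 100 partner genes, 6 (6%, beside 4.12% of all genes) had a change with CD44 KO that differed between Hs578T and MDA-MB-231 in a quasi-likelihood test (edgeR) of the difference itself, adjusted by Benjamini-Hochberg over all genes tested. None of the linkers did. Of these genes, 4 are named above. The difference, Hs578T minus MDA-MB-231 on the log2 scale, was 0.563 for FYN (adjusted p = 0.00517), 0.465 for PXN (adjusted p = 0.00978) and -0.599 for CALM2 (adjusted p = 0.00493). PTPRC, the leukocyte marker CD45, differed by 5.66 (adjusted p = 0.00116, and 0.0483 with the replicate number as a block). IQGAP2, the last of the 4, gave a fitted difference of -10.4 (adjusted p = 1.13e-04), which depends on the prior count because CD44 KO libraries of Hs578T had no IQGAP2 counts, and so is no bound.

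Radixin was the linker whose libraries moved apart in opposite directions. All Hs578T CD44 KO libraries were below their CD44 WT libraries and all MDA-MB-231 CD44 KO libraries were above theirs, with log2 fold changes of -0.0988 and 0.216. The difference of -0.315 did not pass in edgeR (adjusted p = 0.270), and in MDA-MB-231 the highest CD44 WT library, at 170 CPM, nearly reached the lowest CD44 KO library, at 171 CPM.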

How the results depend on the processing

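Over 940 values of the linker genes under other settings, 883 kept their direction and side of the threshold, 38 were no longer called, 13 became called and 6 changed sign. The number of linkers called was 3 in Hs578T, 2 in MDA-MB-231, 0 for the difference between the lines and 5 between the CD44 WT groups. With single libraries left out it ran from 1 to 3, 0 to 2, 0 to 0 and 4 to 7. Hs578T fitted alone lost the ANK2 call, as did robust estimation, and MDA-MB-231 fitted alone gave 1. The difference between the lines gave 3 without the filter on low counts, 1 with DESeq2 and 1 at an adjusted p of at most 0.05. The replicate number as a block gave 3 linkers in Hs578T, 0 in MDA-MB-231, 0 for the difference and 4 between the CD44 WT groups. Within the lines and for the difference, this fit left out the unnumbered library and CD44 KO replicate 2 of MDA-MB-231. Fewer libraries were therefore compared in that line. Between the CD44 WT groups a block over all groups was used, which left out only the unnumbered library. Samples of the same number did not deviate together (r from -0.0957 to 0.164 over 5 pairs, 1 of them over 0.1), so the numbers were not taken to pair them. WT and KO libraries of a line with consecutive label numbers gave r from 0.00793 to 0.164 over 6 pairs, 3 of them over 0.1. Whether these numbers mark libraries handled together is not given by the labels and was not tested, and the main fit used no block. A block by consecutive label numbers, chosen after seeing the data, gave 3, 2, 0 and 5. The calls of ANK3 in MDA-MB-231 and of IQGAP1 ended under the first block (adjusted p = 0.0181 and 0.0131 in edgeR), as did those of the partner genes LCK, PAG1 and TIAM1 in MDA-MB-231 and PPP1CB, SDC2, TMOD1 and FYN in Hs578T. In MDA-MB-231 the block and the libraries left out cannot be told apart, and the cause was not tested.

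Sign changes touched only differences that were not called. Without Hs578T CD44 WT replicate 3, EZR and NHERF1 in Hs578T came to 0.0294 and 0.0209, without the unnumbered library ANK1 in MDA-MB-231 came to -0.0208 and SRC between the CD44 WT groups to -0.0456, and without MDA-MB-231 CD44 WT replicate 1 IQGAP1 between those groups came to -0.10. The replicate block took that SRC value to -0.0509. With single libraries left out, the ranges were -0.0810 to 0.0294 for EZR, -0.147 to 0.0209 for NHERF1, -0.0208 to 0.323 for ANK1, -0.10 to 0.245 for IQGAP1 and -0.0456 to 0.0427 for SRC. With counts not divided by length, the moesin share differed by 1.11 percentage points in MDA-MB-231 in place of 2.62 and by 13.9 between the CD44 WT groups in place of 19.6. With single libraries left out, the moesin difference ran from 1.76 to 2.76, from 1.70 to 3.33 and from 18.7 to 20.2.

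Over all genes, the calls numbered 1189 in Hs578T, 731 in MDA-MB-231 and 653 for the difference. They were 1984, 1370 and 1373 without the filter on low counts and 2253, 1518 and 1670 at an adjusted p of at most 0.05. DESeq2 called 1138 in MDA-MB-231 and 1179 for the difference, MDA-MB-231 fitted alone gave 315, and the replicate block gave 190 in MDA-MB-231 and 281 for the difference. With single libraries left out the ranges were 605 to 1685, 355 to 763 and 396 to 804. ANK3 had 27 to 85 counts per CD44 WT library, which limits its precision. Keeping only genes with 10 counts throughout at least 1 group ended the ANK1 call in Hs578T (adjusted p = 0.0103 in edgeR).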
